A study of Drosophila melanogaster with 8 samples.

Results

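Peptidoglycan recognition proteins are the sensors and scavengers of bacterial cell wall in the fly, and 9 of their genes were followed here together with pirk, a gene that holds the pathway back. The 10 genes were taken by name from a table of 17473 genes, and each name matched a single row. They fall into 5 amidases (PGRP-SC1a, PGRP-SC1b, PGRP-SC2, PGRP-SB1 and PGRP-LB), 3 recognition proteins that start signalling (PGRP-SD, PGRP-LC and PGRP-LE) and 2 inhibitors (PGRP-LF and pirk). Counts were high enough for testing in 9 of the 10. PGRP-SB1 had 0 to 2 counts per library and was not tested.

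In the fly midgut, peptidoglycan shed by bacteria is bound by the membrane receptor PGRP-LC or the intracellular receptor PGRP-LE, which pass the signal through the adaptor imd to the NF-kappaB factor Relish (Rel) and so to genes for antimicrobial peptides. Amidases cut peptidoglycan into pieces that no longer stimulate the receptors, and PGRP-LF and pirk act on the receptor itself, so that resident bacteria do not keep the pathway switched on. FOXO, a transcription factor of the insulin pathway, has been linked to this system in ageing guts, where its activity lowers PGRP-SC2.

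The study compared intestinal stem cells of Drosophila melanogaster whose mitochondrial DNA (mtDNA) was either control or mutant, each without and with knockdown of FOXO, to ask how gene expression responds to a failing respiratory chain and what FOXO adds. There were 2 libraries in each of 4 groups, called here control, mutant, control knockdown and mutant knockdown, where control and mutant refer to the mtDNA and knockdown to FOXO. RNA was pulled down from formaldehyde-fixed material on anti-FLAG beads through the poly(A)-binding protein, which takes mRNA from cells that carry the tagged protein. The labels name neither the mtDNA mutation, the driver of the tagged protein or of the knockdown, nor the age and sex of the flies. They do not say whether replicates came from separate animals, so the p-values measure the spread between these libraries, which may be technical.

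Total counts were 21133996 to 39327066 per library, and the libraries fell into 2 classes by their ribosomal RNA. Control replicate 1 and mutant replicate 1 had 18.2% and 30.8% of their counts on rRNA genes, and the other 6 libraries had 79.4% to 83.8%. All 4 knockdown libraries were of the high-rRNA class. Unless said otherwise, every test below carries a term for the class, in 1 edgeR quasi-likelihood fit over 8 libraries and 11561 genes. The term was chosen after an earlier analysis of these data, which found this split and no power in a fit without the term. Only the control and mutant groups hold both classes and inform the class term, so class and knockdown cannot be fully told apart. The foxo transcript itself had 43.3, 61.9, 49.8 and 66.6 CPM (counts scaled to library sizes adjusted by TMM) without the knockdown and 52.1, 48.1, 52.1 and 53.1 CPM with it. The 43.3 and 49.8 CPM are those of the low-rRNA libraries. Among high-rRNA libraries, all 4 knockdown values lay below the 61.9 and 66.6 CPM without it. The test found no difference past the threshold: control knockdown against control gave -0.28 on the log2 scale (SE 0.13, edgeR adjusted p 0.517), and mutant knockdown against mutant gave -0.37 (SE 0.13, adjusted p 0.274). The knockdown groups are therefore named only as labelled.

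The 2 changes that passed the test were falls of amidase genes in the libraries labelled FOXO knockdown. PGRP-SC1a fell 3.83-fold with control mtDNA, and PGRP-SC1b fell 2.60-fold with mutant mtDNA. That is 1 of 9 tested members in each comparison, where 0.173% of all genes were called lower with control mtDNA and 1.14% with mutant mtDNA. No member passed in mutant against control mtDNA, where 2.08% of all genes were called, in the same comparison under FOXO knockdown, where 0.164% were, or in the interaction of the 2 factors, where 0.51% were. The 3 recognition proteins and both inhibitors passed in no comparison of this fit. Without the class term no gene of the table was called by edgeR in any comparison. Unadjusted p-values under 0.05 were then held by 215 to 264 genes in the 2 mtDNA comparisons and the interaction, and by 622 and 643 in the knockdown comparisons, where 578 of 11561 would be with no difference at all. In a fit of the 6 high-rRNA libraries alone, 3 of the 9 members passed with the knockdown in control mtDNA, all 3 lower, where 2% of all genes did, and 2 of 9 with it in mutant mtDNA, where 3.3% did, PGRP-SC1b lower and PGRP-SC2 higher. There 2 of 9 also passed for mutant against control mtDNA under knockdown, where 1.34% of genes did, and 2 of 9 in the interaction, where 1.59% did. That fit leaves the control and the mutant group 1 library each and assumes that a lone library varies like the knockdown groups.

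**Figure D1:**
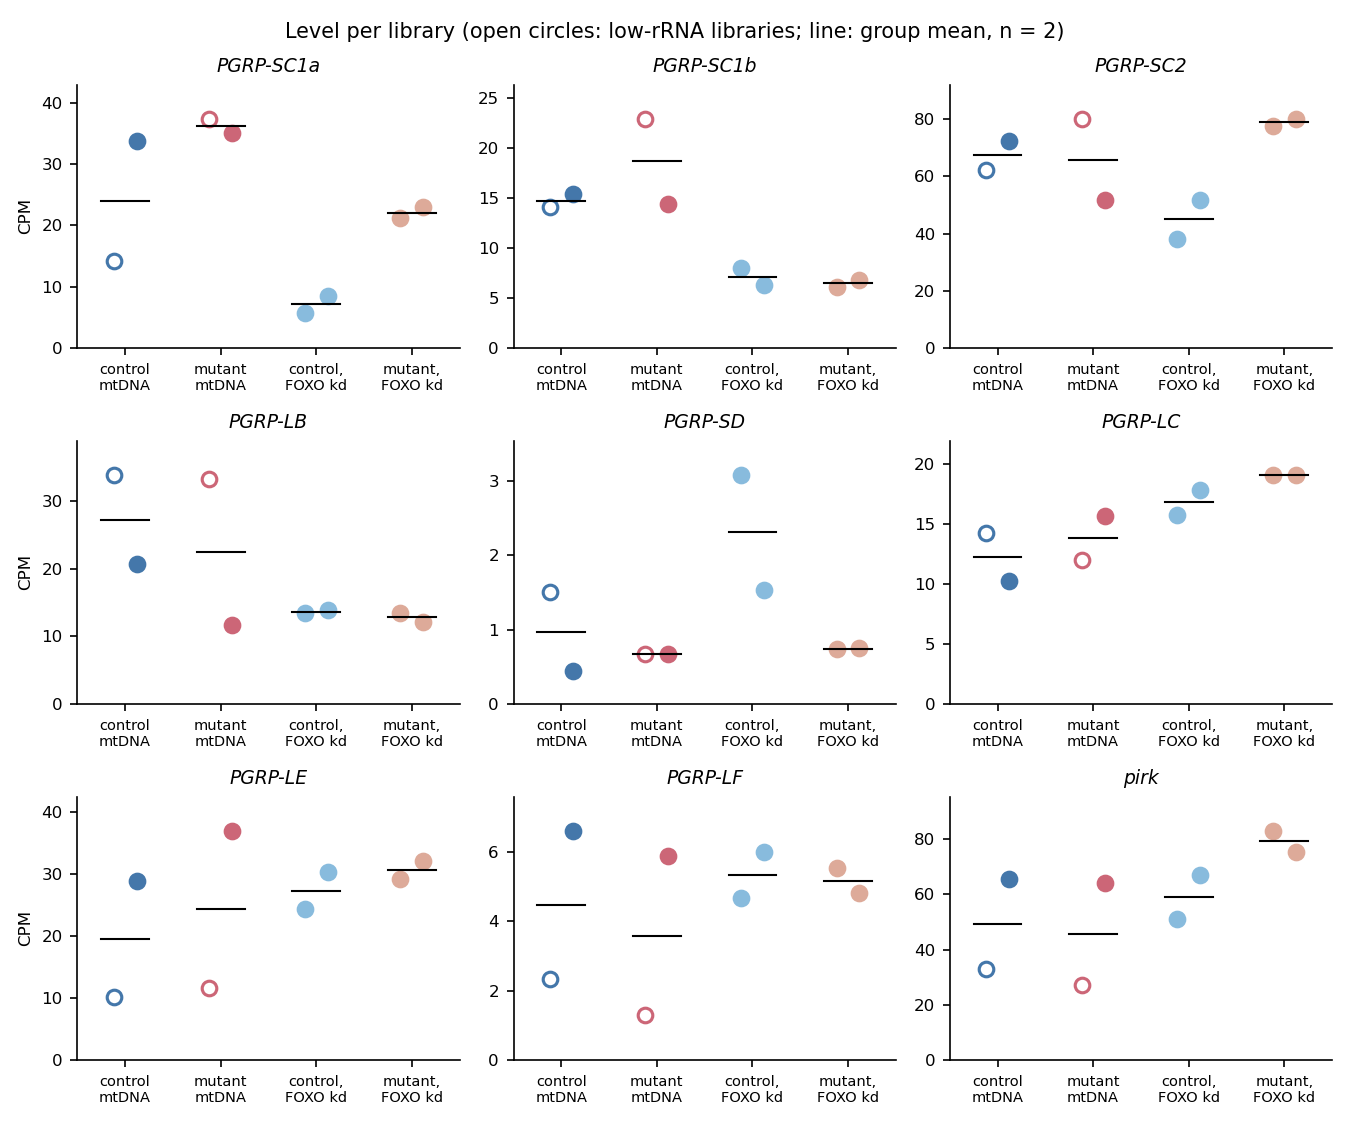
Level in CPM (vertical axis, from 0) of the 9 tested genes in the 8 libraries by group, with open circles for the 2 low-rRNA libraries and lines for group means (n = 2). PGRP-SC1a is lowest in both control knockdown libraries (5.68 and 8.55 CPM), PGRP-SC1b is low in all 4 knockdown libraries (6.14 to 7.99 CPM), and PGRP-LE, PGRP-LF and pirk are low in the open circles.

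To set the genes against each other, CPM were divided by the length of each gene's exons in kilobases. The exons of all annotated transcripts of a gene were merged, so this length can exceed that of any single transcript. On that scale PGRP-SC2 was the highest member in all 8 libraries, at 51.3 to 107 CPM per kb. PGRP-SC1a came next in the 4 libraries without knockdown, at 24.0 to 63.5 CPM per kb, and pirk came next in the 4 with it, at 27.7 to 44.9 CPM per kb. PGRP-LC, whose merged exons span 3743 bases, had 2.74 to 5.11 CPM per kb, and PGRP-LE had 4.93 to 17.8. PGRP-SD had 0.611 to 4.27 CPM per kb, close to PGRP-LF at 0.951 to 4.87, and the order of these 2 differed between libraries. PGRP-SB1 was last everywhere.

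PGRP-SC1a (FBgn0043576), a secreted amidase of the gut, had 14.1 and 33.8 CPM in control and 37.4 and 35.0 CPM in mutant. It had 5.68 and 8.55 CPM in control knockdown and 21.2 and 23.0 CPM in mutant knockdown. Both knockdown groups lay below their counterparts without overlap, and both mutant groups lay above their control groups without overlap. In control mtDNA the log2 fold change with the knockdown was -1.94 (SE 0.31, edgeR adjusted p 0.0132). The mean was 7.12 ± 2.03 CPM (SD, n = 2) in the knockdown libraries, which was 4.75-fold below the single high-rRNA control library and also below the single low-rRNA one. The call rested on 2 libraries: without control replicate 2 the log2 value was -0.94 (adjusted p 0.261), and without control knockdown replicate 1 it was -1.67 (adjusted p 0.0652). Without the class term the value was -1.75 and the edgeR adjusted p 0.782.

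With mutant mtDNA the log2 difference of PGRP-SC1a with the knockdown was -1.04 (SE 0.31, edgeR adjusted p 0.164; DESeq2 adjusted p 0.0272). Over 17 alternatives it ran from -2.01 to -0.67, with adjusted p-values of 5.49e-05 to 0.780, and passed in 3: DESeq2, no filter, and without mutant replicate 2, which gave the -2.01. Mutant against control mtDNA under knockdown gave 1.64 (SE 0.30, adjusted p 0.0593), which is 3.11-fold higher and just outside the threshold. In this comparison all 4 libraries are of the high-rRNA class, and in a fit of the 6 high-rRNA libraries alone the value was 1.62 with an edgeR adjusted p of 1.91e-05. DESeq2 gave 1.62 with an adjusted p of 5.15e-05. The comparison shares its control knockdown libraries with the fall described above, so the low values there enter both.

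Without knockdown, PGRP-SC1a differed between mutant and control mtDNA by 0.74 on the log2 scale (SE 0.27, edgeR adjusted p 0.265). The ratio was 2.64 between the 2 low-rRNA libraries and 1.04 between the 2 high-rRNA libraries, and control replicate 1 was the library that stood apart. The class term assumes 1 class difference for both groups, but PGRP-SC1a had a low-over-high ratio of 0.418 in the control group and of 1.07 in the mutant group. The interaction, which asks whether the mtDNA difference is another with the knockdown than without, was 0.90 (SE 0.40, adjusted p 0.522). In the 6 high-rRNA libraries it was 1.57 with an edgeR adjusted p of 0.00619.

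PGRP-SC1b (FBgn0033327) lies beside PGRP-SC1a and encodes an amidase of nearly the same sequence. It had 14.1 and 15.4 CPM in control, 22.9 and 14.4 in mutant, 7.99 and 6.32 in control knockdown, and 6.14 and 6.78 in mutant knockdown. Every knockdown library lay below every library without it, and the 2 knockdown groups overlapped each other. The log2 fold change with the knockdown was -1.38 with mutant mtDNA (SE 0.27, edgeR adjusted p 0.0203), a call that was lost without mutant knockdown replicate 1 (-1.31, adjusted p 0.0856) and without the class term (-1.53, adjusted p 0.584). With control mtDNA the value was -0.91 (SE 0.26, adjusted p 0.222), and in the 6 high-rRNA libraries it was -1.10 with an adjusted p of 0.0435. The mtDNA difference was 0.32 without knockdown (SE 0.23, adjusted p 0.798) and -0.15 with it (SE 0.25, adjusted p 0.887). The mutant knockdown mean of PGRP-SC1b was 2.24-fold below the single high-rRNA mutant library. Its low-over-high ratio was 0.914 in the control group and 1.59 in the mutant group, while the class term assumes 1 class difference for both.

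The directions of both calls were the same under every scaling tried. PGRP-SC1a with control mtDNA ran from -2.17 on total counts to -1.93 with rRNA genes removed or with RLE size factors, and PGRP-SC1b with mutant mtDNA ran from -1.50 to -1.37, all past the threshold in edgeR. Because the 3 PGRP-SC genes are close copies, reads shared between them may have been placed on either gene or dropped, and how the authors treated such reads is not given in the sources used here.

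PGRP-SC2 (FBgn0043575), the third amidase of this cluster, had 62.3 and 72.4 CPM in control and 80.0 and 51.8 in mutant. It had 38.3 and 51.8 CPM in control knockdown and 77.8 and 80.1 CPM in mutant knockdown. The 2 groups without knockdown overlapped, and both control knockdown libraries lay below both mutant knockdown libraries. Mutant against control mtDNA under knockdown was 0.81 on the log2 scale (SE 0.19, edgeR adjusted p 0.165), against -0.05 without knockdown (SE 0.19, adjusted p 0.999), and the test of that difference gave 0.86 (SE 0.27, adjusted p 0.253). In the 6 high-rRNA libraries the first was 0.80 (edgeR adjusted p 0.000647) and the difference 1.28 (adjusted p 0.00151). The knockdown difference was -0.48 with control mtDNA (SE 0.21, adjusted p 0.480) and 0.38 with mutant mtDNA (SE 0.22, adjusted p 0.698). In the 6 high-rRNA libraries both passed in edgeR, in opposite directions, at -0.68 (adjusted p 0.0127) and 0.60 (adjusted p 0.0237). Without control replicate 2 the first was 0.12, and without mutant replicate 2 the second was -0.23.

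Added together, the 3 PGRP-SC genes had 90.5 and 121.6 CPM in control, 140.3 and 101.2 in mutant, 51.9 and 66.6 in control knockdown, and 105.1 and 109.9 in mutant knockdown. The control knockdown group was below every other library, and the other 3 groups overlapped. The makeup of the sum also differed between groups. PGRP-SC1a gave 10.9% and 12.8% of the counts on the 3 genes in control knockdown, 20.1% and 20.9% in mutant knockdown, and 15.6% to 34.6% without knockdown. The widest of the 95% Wilson intervals on the knockdown shares ran from 9.04% to 13.2%, counting error only. PGRP-SC1b gave 5.84% and 6.17% in mutant knockdown and 9.48% to 16.3% in the other 6 libraries.

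**Figure D2:**
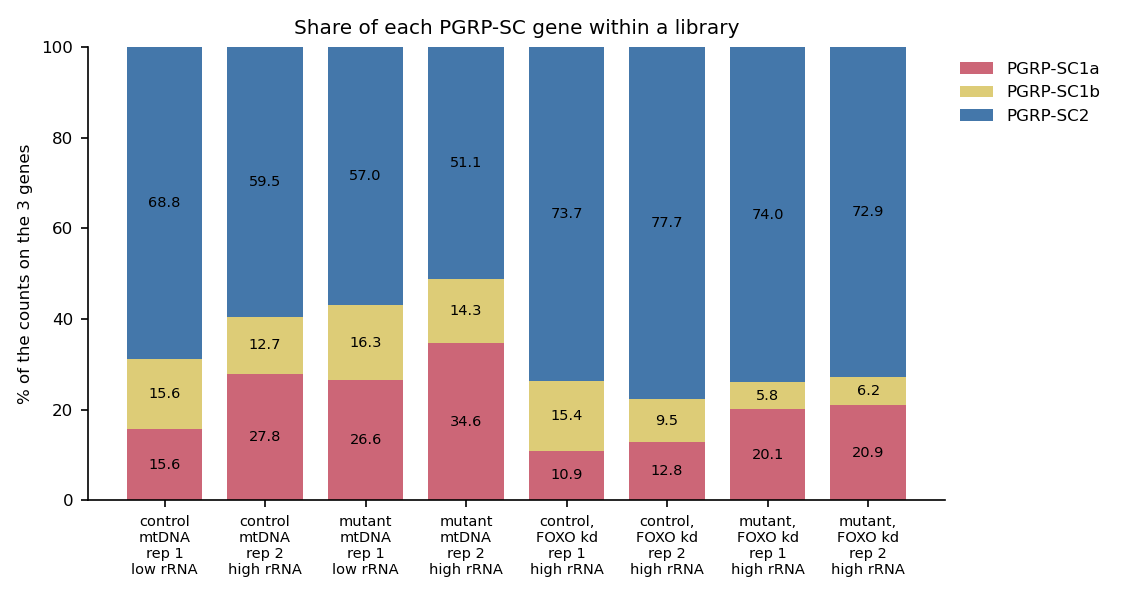
Share of the counts on the 3 PGRP-SC genes (vertical axis, percent) that fell on PGRP-SC1a, PGRP-SC1b and PGRP-SC2 in each library. PGRP-SC2 holds 51.1% to 77.7% everywhere, PGRP-SC1a is smallest in control knockdown, and PGRP-SC1b is smallest in mutant knockdown.

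The ratio of PGRP-SC1a to PGRP-SC1b needs no library scaling. It was 1.00 and 2.19 in control, 1.63 and 2.43 in mutant, 0.711 and 1.35 in control knockdown, and 3.45 and 3.39 in mutant knockdown. Under knockdown the mutant libraries were both above the control libraries, and without knockdown the groups overlapped. A two-sided exact permutation test gave p = 0.333 for the knockdown pair, which is the smallest p that 2 against 2 libraries can give. Over all 8 libraries the ratio ran from 0.711 to 3.45.

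PGRP-LB (FBgn0037906), an amidase of enterocytes that limits Imd signalling, had 33.9 and 20.7 CPM in control, 33.3 and 11.7 in mutant, 13.4 and 13.9 in control knockdown, and 13.5 and 12.2 in mutant knockdown. The 2 highest values were those of the low-rRNA libraries, and the 4 knockdown libraries lay between 12.2 and 13.9 CPM. Mutant against control mtDNA gave -0.40 (SE 0.19, edgeR adjusted p 0.497) and the knockdown with control mtDNA gave -0.40 (SE 0.22, adjusted p 0.584). PGRP-SB1 (FBgn0043578), an amidase induced by infection, had 0 counts in 5 libraries, 1 in 1 library and 2 in 2 libraries. A count of 0 allows up to 3, or 0.107 to 0.191 CPM in those 5 libraries.

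Among the recognition proteins, PGRP-LC (FBgn0035976), the membrane receptor of the Imd pathway, had 14.3 and 10.3 CPM in control, 11.97 and 15.7 in mutant, 15.8 and 17.9 in control knockdown, and 19.1 in both replicates of mutant knockdown. The knockdown libraries were all above those without it. The knockdown differences were 0.46 on the log2 scale in control mtDNA (SE 0.25, edgeR adjusted p 0.584) and 0.49 in mutant mtDNA (SE 0.23, adjusted p 0.532), neither past the threshold. Its range over 8 libraries was 1.86-fold, the narrowest of the 9 tested members.

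PGRP-LE (FBgn0030695), the receptor that detects peptidoglycan inside midgut cells, had 10.2 and 28.8 CPM in control, 11.6 and 36.9 in mutant, 24.3 and 30.3 in control knockdown, and 29.2 and 32.0 in mutant knockdown. Its level followed the library class: the 2 low-rRNA libraries were the lowest, and the high-rRNA library of the same group was 2.82-fold higher in control and 3.18-fold higher in mutant. With the class term no difference between groups exceeded 0.27 on the log2 scale, the value for mutant against control mtDNA (SE 0.15, edgeR adjusted p 0.650). Without the class term the knockdown differences changed sign, to 0.49 and 0.34.

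PGRP-SD (FBgn0035806), a secreted protein that helps peptidoglycan reach the receptors, was the lowest of the tested members, with 9 to 189 counts per library. It had 1.51 and 0.440 CPM in control, 0.667 and 0.676 in mutant, 3.08 and 1.53 in control knockdown, and 0.737 and 0.753 in mutant knockdown. The control knockdown libraries held the 2 highest values. The log2 difference was 1.80 with knockdown in control mtDNA (SE 0.92, edgeR adjusted p 0.564) and -1.63 for mutant against control mtDNA under knockdown (SE 0.76, adjusted p 0.586), neither past the threshold. PGRP-SD was high in the group in which PGRP-SC1a was low, which is a description of 2 libraries.

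Of the inhibitors, PGRP-LF (FBgn0035977) sits in the membrane and blocks PGRP-LC. It had 2.33 and 6.60 CPM in control, 1.29 and 5.87 in mutant, 4.67 and 6.0 in control knockdown, and 5.53 and 4.81 in mutant knockdown. The low-rRNA libraries were again the lowest, and the 6 others lay between 4.67 and 6.60 CPM. The largest log2 difference was -0.51 for mutant against control mtDNA (SE 0.32, edgeR adjusted p 0.714). In the annotation used here 44.4% of its exon bases are shared with UGP on the opposite strand, and whether strand was used in counting is not given in the sources used here, so part of these counts may belong to UGP.

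The gene pirk (FBgn0034647), which is switched on by Relish and removes PGRP-LC from the cell surface, had 33.1 and 65.7 CPM in control and 27.2 and 64.0 in mutant. It had 51.1 and 66.8 CPM in control knockdown and 83.0 and 75.4 CPM in mutant knockdown. The 2 low-rRNA libraries were the lowest, and the 2 mutant knockdown libraries were the highest of all 8. Mutant against control mtDNA was 0.43 under knockdown (SE 0.14, edgeR adjusted p 0.433) and -0.16 without it (SE 0.14, adjusted p 0.905), and the test of the difference gave 0.59 (SE 0.20, adjusted p 0.339). Over 17 alternatives the first value ran from 0.25 to 0.65 and passed the threshold in 2. These left out mutant replicate 1 (0.44) or control knockdown replicate 2 (0.65), and each left a group with 1 library.

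**Figure D3:**
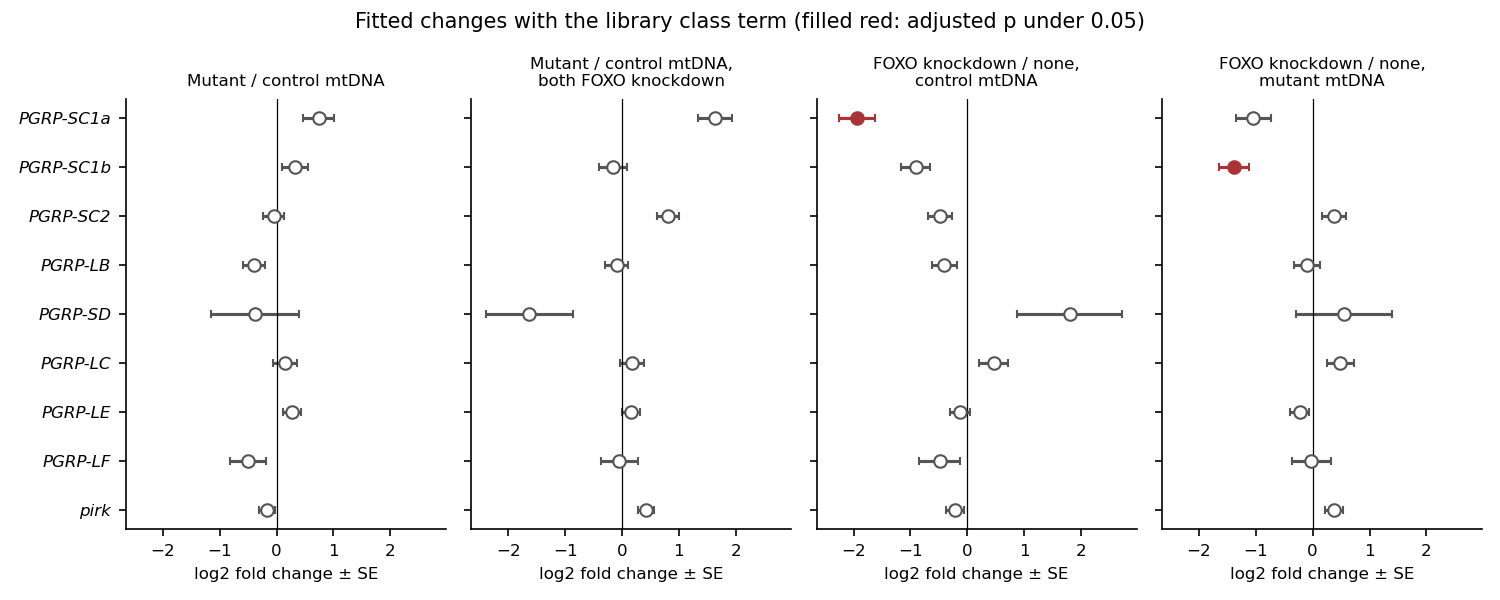
Fitted log2 fold changes with the class term (horizontal axis, points; bars are 1 SE) of the 9 tested genes in 4 comparisons, with red for an edgeR adjusted p under 0.05. PGRP-SC1a with FOXO knockdown in control mtDNA (-1.94) and PGRP-SC1b in mutant mtDNA (-1.38) are red, and PGRP-SD has the widest bars.

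Counted by libraries that did not overlap, 4 members were lower with the knockdown in control mtDNA (PGRP-SC1a, PGRP-SC1b, PGRP-SC2 and PGRP-LB), where 19.5% of all genes were, and 2 were higher, where 14.3% were. In mutant mtDNA 2 members were lower, where 22.3% of genes were, and 3 were higher, where 21.5% were. Under knockdown 4 members were higher with mutant mtDNA (PGRP-SC1a, PGRP-SC2, PGRP-LC and pirk), where 23.3% of genes were, and PGRP-SD was lower, where 17.5% were. Without knockdown only PGRP-SC1a was higher with mutant mtDNA, where 8.92% of genes were. The median log2 difference of the 9 members with the knockdown was -0.40 in control mtDNA, against -0.03 over all genes tested, but -0.02 in mutant mtDNA, against 0.01. For mutant against control mtDNA it was -0.05 without knockdown, against 0.01, and 0.16 with it, against 0.03, and for the interaction it was 0.31, against 0.03.

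The rest of the pathway was read from lists of its other genes. None of the 13 genes of the Imd cascade passed in any of the 5 comparisons, and their median log2 difference lay between -0.16 and 0.12. Rel, the Relish gene, had 59.8 to 174.7 CPM. Dredd, the caspase that acts with imd, had the smallest p of the list under knockdown, with 3.25 and 4.02 CPM in control mtDNA and 6.55 and 6.54 CPM in mutant mtDNA (0.85, SE 0.29, edgeR adjusted p 0.433). None of 9 further brakes of the pathway passed. Their medians lay between -0.10 and 0.17, and the smallest p was that of dnr1, which holds Dredd in check, at 0.45 for mutant against control mtDNA (SE 0.14, adjusted p 0.140).

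Genes for antimicrobial peptides were almost silent, and which pathway drives each of them was not tested. Of 16 genes for antimicrobial peptides, 13 stayed under 1 CPM in all libraries and 6 had enough counts to be tested, none of which passed. Their summed level was 7.29 to 9.37 CPM in control, 2.28 to 6.43 in mutant, 1.89 to 2.81 in control knockdown and 2.05 to 2.61 in mutant knockdown. A few libraries made up much of this. Drs had 5.79 CPM in control replicate 1 and 2.65 CPM in mutant replicate 1, the low-rRNA libraries, and 0 to 0.592 CPM in the others. DptA had 3.33 CPM in control replicate 2 and 0.0592 to 0.391 CPM in the others. The control and mutant sums mix both library classes, while the knockdown libraries are all of the high-rRNA class. AttD was the one peptide gene with counts in every library at a comparable level, 0.356 to 1.91 CPM. The lowest summed level of the 10 genes for recognition proteins and pirk, 164.2 CPM, was well above the highest of the peptides, although these are sums of genes of different length.

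**Figure D4:**
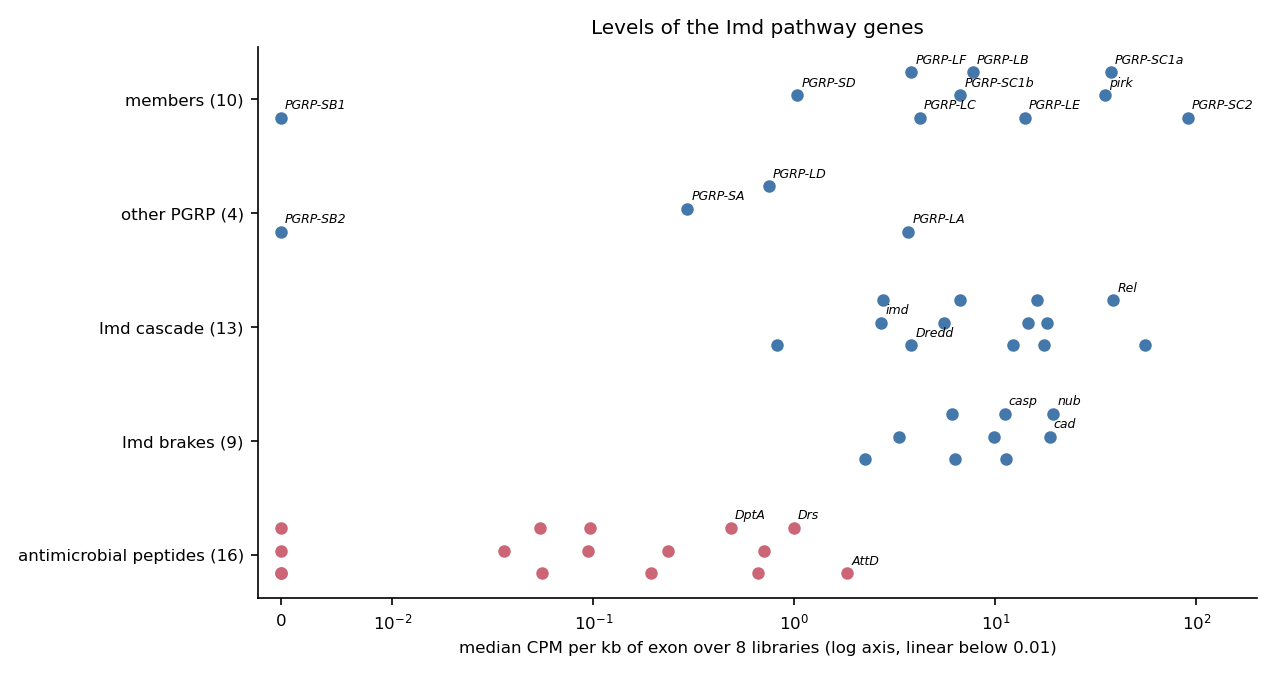
Median over 8 libraries of CPM per kb of exon (horizontal axis, logarithmic, linear below 0.01) for each gene of 5 gene lists, with antimicrobial peptides in red. The peptide genes lie at the left, with AttD highest at 1.84, and PGRP-SC2 lies at the right at 90.2 CPM per kb.

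The 4 other recognition protein genes, PGRP-LA, PGRP-LD, PGRP-SA and PGRP-SB2, gave 3 tested genes and no call. PGRP-LA had 4.70 to 7.57 CPM without the knockdown and 7.88 to 14.7 CPM with it, without overlap, and its log2 difference was 0.79 in both backgrounds (edgeR adjusted p 0.416 with control and 0.315 with mutant mtDNA). PGRP-LD shares 90.0% of its exon bases with Pmi on the same strand, so its counts are uncertain. None of the 4 genes of the oxidant defence of the gut passed, and Duox had 0.342 to 2.05 CPM. Of the 15 genes of the Toll pathway, the other immune route of the fly, 14 were tested and none passed, with medians between -0.26 and 0.33.

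Markers of gut cell types were set beside these values, because a bulk sample cannot separate fewer cells of a type from less RNA per cell. Progenitor markers were present, with esg at 18.5 to 29.1 CPM and a sum of 54.6 to 111.2 CPM over the 6 of the list. Markers of other cells were present too, and the 6 enterocyte markers, which include abundant digestive proteases, summed to 3471 to 11076 CPM. Of these, Myo31DF had 93.3 to 155.0 CPM and nub 68.9 to 111.1 CPM. The enterocyte sum was 8350 and 11076 CPM in the 2 low-rRNA libraries and 3471 to 4167 CPM in the other 6. PGRP-LB was also highest in those 2. The markers did not all follow the class. For alphaTry the values were 3017 and 3487 CPM in those 2 and 703 to 822 in the other 6. For betaTry they were 1888 and 3247 against 213 to 285, and Jon65Aiv was also highest there. Myo31DF went the other way, at 93.3 and 100.0 CPM against 112.5 to 155.0, and nub and Jon99Ciii did not separate by class. With the knockdown in control mtDNA, where PGRP-SC1a fell, the enterocyte sum was 3729 to 4093 CPM, none of the 6 markers passed, and their median log2 difference was 0.11. With the knockdown in mutant mtDNA, where PGRP-SC1b fell, the sum was 3524 to 3580 CPM, none passed, and the median was -0.12. Jon99Ciii was lower in every knockdown library (446 to 542 CPM) than in any other library (650 to 764 CPM). It held the smallest p of the list both times, at -0.43 with control mtDNA (edgeR adjusted p 0.263) and -0.46 with mutant mtDNA (adjusted p 0.133). Above 0 were 5 of the 6 markers with control mtDNA and 1 of 6 with mutant mtDNA. How these values relate to the falls of PGRP-SC1a and PGRP-SC1b was not tested. Of the enterocyte markers, nub is also 1 of the 9 brakes.

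Single genes of other marker lists passed between the same groups, and their part in the results above was not tested. With mutant mtDNA and no knockdown, the progenitor genes Dl (-0.99, edgeR adjusted p 0.0148) and Sox100B (-0.90, adjusted p 0.0341) fell, 2 of 6 on their list. Of all genes 2.08% were called there. The progenitor list had 0 of 6 above 0, at a median of -0.53, against 0.01 over all genes. In that comparison the enterocyte protease gene betaTry rose by 0.58 (adjusted p 0.0482), 1 of 6, and the muscle gene up by 0.72 (adjusted p 0.0121), 1 of 6. The enterocyte list had 5 of 6 above 0, at a median of 0.24, and the muscle list 6 of 6, at a median of 0.66. All 4 fat body markers were above 0, at a median of 0.94, and none passed. Of those 4, Lsp2 and Fbp1 had 0 counts in some libraries. The hormone gene NPF, 1 of 8 enteroendocrine markers, rose by 2.05 with mutant mtDNA (adjusted p 0.00541) and by 2.01 with the knockdown in control mtDNA (adjusted p 0.0323). The list as a whole did not follow it: 2 of 8 markers were above 0 with mutant mtDNA, at a median of -0.66, and 4 of 8 with the knockdown in control mtDNA, at a median of -0.01, where CCHa2 was at -1.43 (adjusted p 0.0997). With the knockdown in mutant mtDNA, AstC of the same list rose by 1.10 (adjusted p 0.0138), and Yp1, 1 of 4 fat body markers, fell by 1.19 (adjusted p 0.0201). Yp1 was highest in the low-rRNA libraries, at 27.9 CPM in control and 48.0 CPM in mutant, against 4.23 to 10.5 CPM in the others. On the fat body list only Fbp1 was above 0 with the knockdown in mutant mtDNA, at 2.99 (SE 1.77, edgeR adjusted p 0.723). The progenitor list had 5 of 6 above 0 in that comparison, at a median of 0.47, against 0.01 over all genes. The muscle list had 0 of 6 above 0, at a median of -0.39. No gene of these 2 lists passed there. Of 5 haemocyte markers only Hml and Pxn had enough counts to be tested, neither passed, and the sum over the list was 3.65 to 6.28 CPM.

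Among all genes tested, those whose pattern over the 8 libraries was most like that of PGRP-SC1a, the member with the widest range at a mean of at least 10 CPM, were CR45192, Oseg2 and Acp32CD. Likeness was the root mean square difference of log2 CPM after centring each gene on its mean, which was 0.27 for CR45192, 0.29 for Oseg2 and 0.32 for Acp32CD. CR45192, an antisense RNA by its annotation, had 1.60 to 9.89 CPM, and the other 2 stayed under 1 CPM, where counts are few. The neighbours in the cluster were less alike than those genes. Among the 11561 genes tested, PGRP-SC2 came at rank 376 and PGRP-SC1b at rank 612. All other tested members came later, at rank 4464 to 11096.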

How the data were processed

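RNA was sequenced in 8 libraries, 2 for each of 4 groups named by the labels. The authors deposited their counts as 1 table, with 1 integer per gene and library and no normalization. The submitters' processing notes name FastQC, cutadapt, HISAT2, featureCounts and limma; versions, genome build, strand setting and the handling of reads with several matches are not given in the sources used here. An Ensembl BDGP6 annotation served for exon lengths and overlaps only, so no coordinates are printed. No sequences are shown.

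The deposited counts were fitted in edgeR 4.0.16 (R 4.3.3): filterByExpr on the groups, TMM, 1 mean per group plus a library class term (libraries divided at an rRNA share of 50%), glmQLFit and glmQLFTest, Benjamini-Hochberg adjustment over 11561 genes, two-sided, threshold 0.05. Mutant mtDNA was set against control mtDNA in flies without and in flies with FOXO knockdown, the difference of these 2 was tested as an interaction, and knockdown was set against none in each background, 5 comparisons in all. CPM use TMM-scaled sizes, with factors of 0.629 to 3.19. Counts outside rRNA genes were 32186975 and 19184494 in the 2 low-rRNA libraries and 4103725 to 7561200 in the others, so a count of 3 is 0.0239 to 0.191 CPM. Intervals and floors cover counting error only. The genes, the 12 other lists (other recognition proteins, Imd cascade, Imd brakes, antimicrobial peptides, oxidants, Toll, and markers of progenitors, enterocytes, enteroendocrine cells, muscle, fat body and haemocytes), the tests and the class term were chosen with earlier results of these data known. Named were all members, up to 3 called genes of each list with the smallest p, or else at most the 1 with the smallest p, and the 3 genes most like the member with the widest range of log2 CPM (prior count 3) at a mean of at least 10 CPM. Rel, Duox, esg, CCHa2, PGRP-LD and the highest peptide genes were added after their values were seen. The scripts were tested on simulated data. Alternatives were no class term, the 6 high-rRNA libraries, RLE size factors, total counts, rRNA genes removed, no filter, at least 5 CPM in 2 libraries, DESeq2 1.42.0, a replicate block, and leaving out each library. Figures were made with matplotlib 3.10.9.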

Additional observations from a re-analysis of the deposited data

How the results depend on the processing

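Of 755 values of single members under these alternatives, 659 kept their direction and their side of the threshold, 50 passed it newly, 5 lost it and 41 changed sign. Members called, in the order mutant against control mtDNA, the same under knockdown, their interaction, knockdown in control mtDNA and knockdown in mutant mtDNA, were 0, 0, 0, 1 and 1. Without the class term the last 2 were 0 and 0. With the 6 high-rRNA libraries only, the last 4 were 2, 2, 3 and 2. Without a filter, where 10 members and 16680 genes were tested, all 5 were 1, 2, 2, 2 and 2. DESeq2, with 9 members and 11561 genes tested, called 2 under knockdown and 2 for knockdown in mutant mtDNA. Leaving out 1 library gave 0 to 1, 0 to 3, 0 to 2, 0 to 3 and 0 to 2, with more genes tested. Over all genes, in the same order, 241, 19, 59, 66 and 220 were called. These became 0 in each without the class term. On total counts they were 94, 4, 0, 33 and 101, with the median of all genes moved to -0.25, -0.10, 0.16, -0.27 and -0.12. Without a filter they were 546, 172, 271, 278 and 446, and in DESeq2 476, 156, 281, 200 and 420. The 6 high-rRNA libraries gave 158, 188, 236 and 389 in the last 4, and removing rRNA genes gave 29 under knockdown. Leaving out 1 library gave 250 to 470, 8 to 680, 45 to 510, 65 to 623 and 119 to 430.

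Fits with a replicate block called 1 member under knockdown (PGRP-SC1a, 1.66, edgeR adjusted p 0.0259) and 30 genes there, 129 genes for knockdown in mutant mtDNA, and turned PGRP-LF in that comparison to 0.0196. Replicate differences correlated at 0.793 between the control and mutant groups, which share the class split, and at -0.0253 to -0.00115 between the other groups, and the labels do not say that the numbers pair the libraries.

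Log2 values that changed sign were all of members not past the threshold. In mutant against control mtDNA they were PGRP-SC1b (-0.0944) and PGRP-SD (0.62) with the 6 high-rRNA libraries, and PGRP-LC (-0.0897) on total counts. In the interaction they were PGRP-LC (-0.44) with the 6 libraries and PGRP-LE (0.0033) on total counts. Without the class term, knockdown in control mtDNA gave PGRP-LE 0.49, PGRP-LF 0.28 and pirk 0.26, and in mutant mtDNA PGRP-LE 0.34 and PGRP-LF 0.55. There PGRP-LB was 0.12 with the 6 libraries and PGRP-LF 0.0113 with at least 5 CPM. Leaving out 1 library, mutant against control mtDNA ranged from -0.0796 to 0.70 for PGRP-SC1b, -0.47 to 0.36 for PGRP-SC2, -1.21 to 0.63 for PGRP-SD and -0.29 to 0.62 for PGRP-LC. Under knockdown it ranged from -0.29 to 0.0312 for PGRP-SC1b and -0.21 to 0.17 for PGRP-LF. The interaction ranged from -0.0512 to 0.72 for PGRP-LB, -0.43 to 0.47 for PGRP-LC and -0.26 to 0.0748 for PGRP-LE. Knockdown in control mtDNA ranged from -0.73 to 0.12 for PGRP-SC2, -0.60 to 0.15 for PGRP-LB, -0.19 to 0.71 for PGRP-LC and -0.31 to 0.0256 for PGRP-LE. Knockdown in mutant mtDNA ranged from -0.23 to 0.60 for PGRP-SC2, -0.65 to 0.12 for PGRP-LB and -0.19 to 0.51 for PGRP-LF. The cause of these changes was not tested. Depth limits PGRP-SD and PGRP-SB1 most.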
